A study of Mus musculus with 12 samples.

Results

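To investigate genes of matrix formation and profibrotic signalling, 9 genes were chosen by name: the growth factors Tgfb1, Tgfb2 and Pdgfb, the matrix proteins Fn1, Col1a1, Col3a1 and Col4a1, the protease Mmp7 and the protease inhibitor Timp1. Of these, 8 were read from both count tables, among 50433 gene symbols in renal tubular epithelial cells (TECs) and 50434 in neutrophils (polymorphonuclear cells, PMN). The ninth, Timp1, was not analysed here. All 4 groups were wild-type male C57BL/6J mice with ischemia-reperfusion injury (IRI), in which both renal pedicles are clamped for a time and then released. Cells were collected 24 hours later. The mice received either glutamine, given as the dipeptide alanyl-glutamine into the vein, or saline (vehicle). TECs were sorted from kidney as CD45-negative, Prominin-1-positive cells, and PMN came from blood. Each group held 3 libraries, named by replicates 3, 4 and 5 for TECs of vehicle-treated mice and replicates 1, 2 and 3 for the other groups, where the numbers of the PMN libraries only name them, in the order in which the samples are listed. No uninjured mice are part of the comparison, so that the values show differences between treatments after injury and not the response to injury.

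Transforming growth factor beta (TGF-β) is secreted in a latent form, is released by proteases and integrins, and signals through a receptor pair and SMAD proteins to genes of matrix formation. After kidney injury, tubular cells secrete TGF-β and platelet-derived growth factor (PDGF), both of which act on interstitial fibroblasts, the main source of fibrillar collagen. Type IV collagen, in contrast, belongs to the basement membrane on which the tubule rests. Matrix metalloproteinases degrade matrix proteins and are held in check by the TIMP inhibitors.

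Of the 8 genes, Tgfb2 had the highest ratio of mean levels, glutamine over vehicle, in TECs (2.64), and Mmp7, whose counts were too low for the test across genes, the lowest (0.134). The 250 bases before the annotated start of these genes are shown, together with those of Tgfb1 as the close relative of Tgfb2. They are taken from RefSeq on GRCm38.p6, are written 5′ to 3′ on the strand of the gene, and carry motif matches in capitals. The windows are chr1:186705990-186706239 on the minus strand for Tgfb2, chr7:25686752-25687001 on the plus strand for Tgfb1 and chr9:7691840-7692089 on the plus strand for Mmp7.
Tgfb2: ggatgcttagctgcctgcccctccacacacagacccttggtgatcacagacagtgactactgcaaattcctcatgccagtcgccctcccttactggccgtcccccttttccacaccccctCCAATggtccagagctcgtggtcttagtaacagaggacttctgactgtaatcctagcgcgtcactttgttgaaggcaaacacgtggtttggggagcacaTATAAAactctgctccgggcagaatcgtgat
Tgfb1: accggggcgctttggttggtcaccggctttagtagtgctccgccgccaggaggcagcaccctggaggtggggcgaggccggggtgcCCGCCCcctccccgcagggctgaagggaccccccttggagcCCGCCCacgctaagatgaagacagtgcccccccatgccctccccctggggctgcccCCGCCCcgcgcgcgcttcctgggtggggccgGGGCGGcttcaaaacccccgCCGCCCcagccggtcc
Mmp7: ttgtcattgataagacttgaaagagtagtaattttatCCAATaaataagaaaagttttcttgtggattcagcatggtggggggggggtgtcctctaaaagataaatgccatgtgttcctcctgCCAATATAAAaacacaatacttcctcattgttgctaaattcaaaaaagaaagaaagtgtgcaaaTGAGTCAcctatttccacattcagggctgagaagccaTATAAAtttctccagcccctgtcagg
The motifs searched, on both strands, were the TATA box TATAAA, the CCAAT box CCAAT, the GC box GGGCGG, the AP-1 motif TGANTCA and the cyclic AMP response element TGACGTCA. The Tgfb2 window held a TATA box that begins 31 bases before the start and a CCAAT box that begins 130 bases before it. The Tgfb1 window held 5 GC boxes, on either strand, beginning 164, 123, 67, 36 and 16 bases before the start. The Mmp7 window held TATA boxes at 26 and 123 bases, CCAAT boxes at 127 and 213 bases and an AP-1 motif at 63 bases before the start, and the CCAAT box at 127 bases shares its last base with the TATA box at 123. RefSeq also gives a second, downstream start for Mmp7, whose window (chr9:7692091-7692340, not printed) held a CCAAT box at 59 bases and no other of the motifs searched. Among 32851 promoter windows of the same length in RefSeq, 12.4% held TATAAA, 33.8% CCAAT, 32.7% GGGCGG, 6.7% TGANTCA and 1.5% TGACGTCA. A match describes the letters and shows no binding. RefSeq windows matched for 5 of the 8 genes, also for Col3a1 and Col4a1, and those of Fn1, Col1a1 and Pdgfb are named only.

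The TEC libraries held 5397370 to 10223461 counts and the PMN libraries 20225246 to 21878446. Levels are given in CPM, the standard scaling of a count to library size, here TMM-scaled library sizes, and a count of 3 corresponds to 0.269 to 0.603 CPM in TECs and 0.137 to 0.158 CPM in PMN. Such floors cover counting error only. The sort marker Prom1 was present in all TEC libraries (64.6 to 83.5 CPM), while Ptprc, which encodes CD45, stayed between 0.102 and 2.74 CPM. The 8 proximal tubule markers summed to 3639 to 5800 CPM in TECs, and the 8 neutrophil markers to 20728 to 69970 CPM in PMN. In PMN, 2 vehicle libraries gave high values for markers of other cells. The 8 endothelial markers summed to 2268 CPM in vehicle replicate 2 against 2.71 to 90.9 CPM in the other 5. The 7 markers of the thick ascending limb, a kidney segment, summed to 1076 CPM in vehicle replicate 1. In the other libraries they summed to 4.23 to 43.6 CPM. Umod alone held 1025 of the 1076 CPM, while Slc12a1 of the same segment was at 0.401 CPM. Vehicle replicate 1 also held 193 CPM of Slc12a3, a distal convoluted tubule marker. Its proximal tubule markers (25.3 CPM) and collecting duct markers (1.2 CPM) did not have high sums. In PMN, 24.1% of the tested genes had more than 50% of their counts in 1 library, compared with 0.876% in TECs. The labels do not name the mice, so that p-values measure the spread between these libraries, which may be technical. In such bulk samples, fewer cells of a type and less RNA per cell cannot be told apart.

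By the GENCODE M21 annotation (GRCm38), Tgfb1 lies at chr7:25687002-25705077, Tgfb2 at chr1:186622792-186705989, Pdgfb at chr15:79995874-80014977, Fn1 at chr1:71585520-71653200, Col1a1 at chr11:94936224-94953042, Col3a1 at chr1:45311538-45349706, Col4a1 at chr8:11198423-11312826 and Mmp7 at chr9:7692090-7699585. Col4a1 starts head to head with Col4a2 on the other strand, and their first exons share 22 bases. Exons of Tgfb2, Fn1 and Mmp7 overlap the antisense genes Gm29491, Apol7d and AV064505 by 124, 292 and 123 bases, and whether counting used the strand is not given in the sources used here. In no library did these antisense genes exceed 0.474 CPM. The overlap covered 2.14% of the exon bases of Tgfb2, 2.5% of Fn1 and 11.5% of Mmp7.

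In TECs, glutamine was compared with vehicle by edgeR's quasi-likelihood test over 14734 genes with Benjamini-Hochberg adjusted p-values. No gene had an adjusted p-value below 0.05 (0% of the tested genes), with 0 genes also in limma-voom and 245 in DESeq2, whereas 7.23% were higher and 5.51% lower with glutamine at an unadjusted p-value below 0.05. Values of the vehicle and glutamine libraries did not overlap for 9.01% of the genes with glutamine higher and for 9.81% with glutamine lower. Among the members, 5 were tested (Tgfb1, Tgfb2, Pdgfb, Fn1 and Col4a1). Col1a1, Col3a1 and Mmp7 were below the filter on low counts. Of the 5, none passed the adjusted threshold, 2 (Tgfb2 and Fn1) were higher at an unadjusted p-value below 0.05, and the same 2 did not overlap between the groups.

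Among the ligands, Tgfb2 encodes one of the TGF-β isoforms. Its level was 2.27, 2.96 and 2.85 CPM in the vehicle libraries and 3.48, 10.7 and 7.13 CPM in the glutamine libraries. All glutamine libraries were above all vehicle libraries, although glutamine replicate 1 was only slightly above. Mean levels were 2.69 ± 0.371 and 7.09 ± 3.58 CPM in vehicle-treated and glutamine-treated mice (SD, n = 3). In edgeR the log2 fold change was 1.38 ± 0.52 (SE), with an unadjusted p = 0.0226 and an adjusted p = 0.319, which does not pass the threshold. The spread within the glutamine group was wide, and leaving out glutamine replicate 2, the shallowest library, gave a log2 fold change of 0.97.

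Tgfb1, the isoform best known from fibrosis, was a low-level gene in TECs. Its level was 2.96, 0.627 and 1.32 CPM with vehicle and 2.16, 2.61 and 3.62 CPM with glutamine. The groups overlapped, because vehicle replicate 3 exceeded glutamine replicates 1 and 2. The log2 fold change of 0.77 ± 0.74 (SE) was close to its error (edgeR, adjusted p = 0.684), and it was 1.51 without vehicle replicate 3 and 0.38 without vehicle replicate 4. The other isoform gene, Tgfb3, was close to the counting floor, with 0.0896 to 0.395 CPM with vehicle and 0.402 to 1.92 CPM with glutamine, and was not tested.

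Pdgfb encodes the B chain of PDGF, a mitogen of fibroblasts and pericytes. It was measured at 21.7, 24.2 and 14.8 CPM with vehicle and 19.9, 18.1 and 23.3 CPM with glutamine. Here the groups overlapped fully. The log2 fold change was 0.02 ± 0.28 (SE, edgeR, adjusted p = 0.986), and its sign turned with the scaling and with single libraries.

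**Figure D1:**
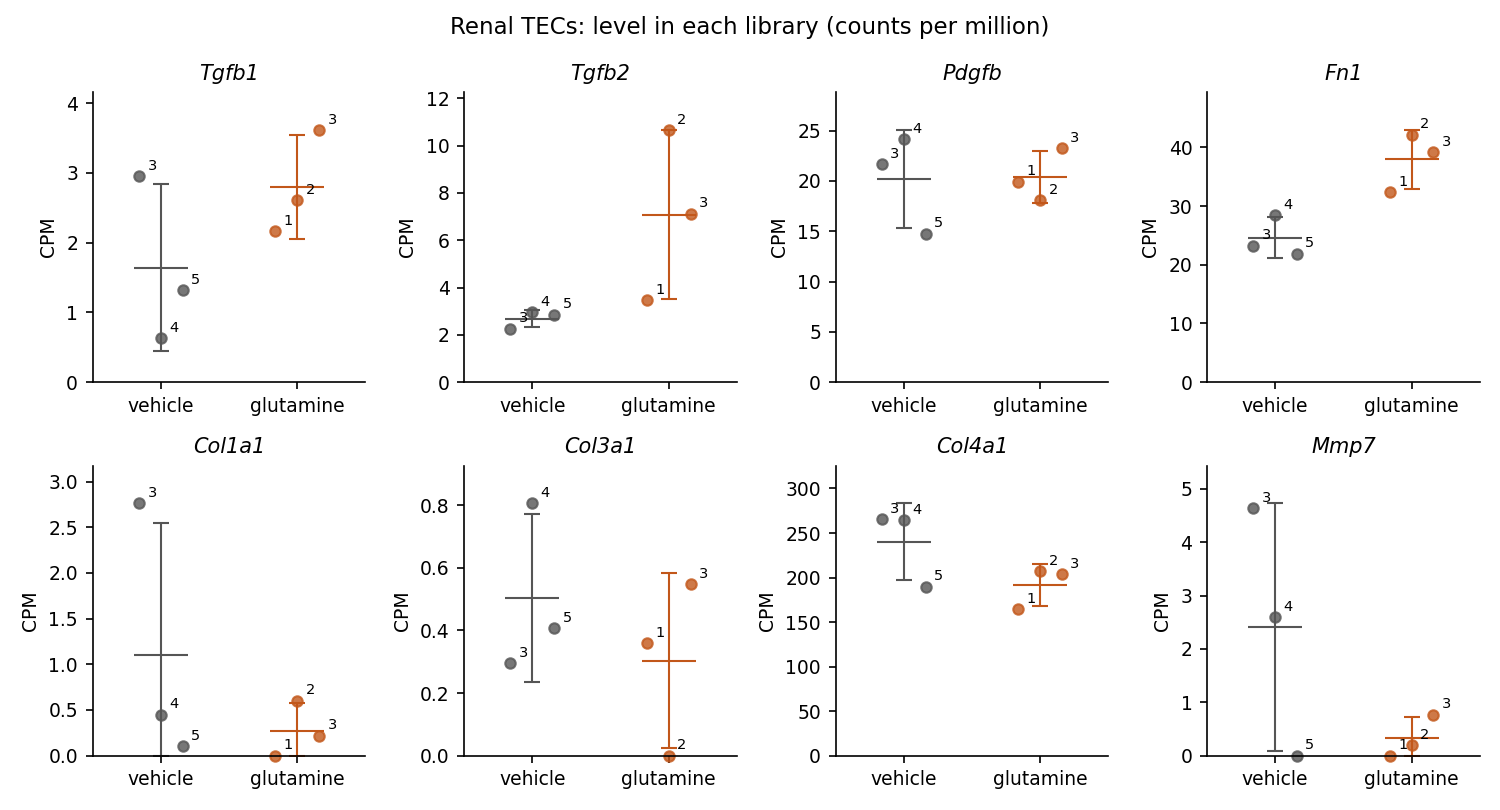
Level of the 8 genes in each TEC library, in CPM (y axis, starting at 0, with its own scale in each panel). Points are libraries labelled by replicate number, and horizontal lines and bars give the mean and SD of 3 libraries, with bars cut at 0. All glutamine points lie above all vehicle points for Tgfb2 and Fn1, and the groups overlap for the other 6 genes.

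Among the matrix proteins, Fn1 encodes fibronectin, an early component of provisional matrix. Its level was 23.3, 28.5 and 21.9 CPM with vehicle and 32.4, 42.2 and 39.3 CPM with glutamine. The groups did not overlap. Mean levels were 24.6 ± 3.47 and 38.0 ± 5.0 CPM (SD, n = 3), a log2 fold change of 0.63 ± 0.23 (SE) with an unadjusted p = 0.0209 and an adjusted p = 0.309 in edgeR. Over the 13 alternatives the log2 fold change lay between 0.54 and 0.74 and the adjusted p between 0.255 and 0.626.

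Col4a1 encodes the α1 chain of type IV collagen and was the most abundant of the 8 genes in TECs. Its level was 265, 264 and 190 CPM with vehicle and 165, 207 and 204 CPM with glutamine. Vehicle replicate 5 lay within the range of the glutamine libraries, apart from vehicle replicates 3 and 4. The log2 fold change was -0.32 ± 0.21 (SE, edgeR, adjusted p = 0.542), and it was -0.47 without vehicle replicate 5 (adjusted p = 0.269; range over 13 alternatives 0.269 to 0.848). Col4a2, its head-to-head neighbour and partner chain, was measured at 251, 319 and 183 CPM with vehicle and 178, 212 and 258 CPM with glutamine, with a log2 fold change of -0.22 ± 0.24 (SE, edgeR, adjusted p = 0.733).

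The major fibrillar collagen genes Col1a1 and Col3a1 had few counts in the sorted TECs. Col1a1, the α1 chain of type I collagen, was counted 28, 5 and 1 times with vehicle and 0, 3 and 2 times with glutamine, so that 28 counts in vehicle replicate 3 made up most of the signal. Col3a1, the type III collagen gene, had 3, 9 and 4 counts with vehicle and 3, 0 and 5 counts with glutamine. The difference of the means was -0.83 CPM for Col1a1 (exact permutation test, two-sided p = 0.6) and -0.2 CPM for Col3a1 (exact permutation test, two-sided p = 0.5), where 3 libraries against 3 cannot give a p-value below 0.1. Without vehicle replicate 3, the difference of Col1a1 was -0.000917 CPM, and that of Col3a1 was -0.0489 CPM without vehicle replicate 4 or without glutamine replicate 2. In contrast, Col1a2, the partner chain of Col1a1, was tested, at 4.34, 7.97 and 10.7 CPM with vehicle and 10.9, 23.7 and 8.22 CPM with glutamine (log2 fold change 0.88 ± 0.47 SE, edgeR, adjusted p = 0.455).

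Mmp7 encodes matrilysin, a protease secreted by injured tubular epithelium. It had 47 and 29 counts in vehicle replicates 3 and 4, and 0 in vehicle replicate 5. The glutamine libraries held 0, 1 and 7 counts. The groups overlapped because of vehicle replicate 5. Mean levels were 2.41 ± 2.32 and 0.323 ± 0.398 CPM in vehicle-treated and glutamine-treated mice (SD, n = 3), a difference of -2.09 CPM (exact permutation test, two-sided p = 0.4, or 0.6 when adjusted over the 3 genes tested in this way). Without vehicle replicate 5 the difference was -3.29 CPM, and without vehicle replicate 3 it was -0.976 CPM. In edgeR without the filter the adjusted p was 0.3, and over the fits that included Mmp7 it was 0.18 to 0.714.

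Vehicle replicate 5 also stood apart from the other vehicle libraries in Havcr1, which encodes the injury marker KIM-1. Havcr1 was measured at 793, 541 and 106 CPM with vehicle and 94.1, 49.4 and 26.2 CPM with glutamine (log2 fold change -3.08 ± 0.65 SE, edgeR, unadjusted p = 0.000588, adjusted p = 0.178). Havcr1 belongs to a list of 10 injured tubule markers, of which 4 were higher and 6 lower (median -0.19), and it was named after its values were seen as the list's lowest and its only gene with an unadjusted p-value below 0.05. Mmp7 and Havcr1 were both highest in vehicle replicates 3 and 4, followed at a distance by the other libraries. Tgfb2 and Fn1, on the other hand, were as low in vehicle replicate 5 as in the other vehicle libraries.

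**Figure D2:**
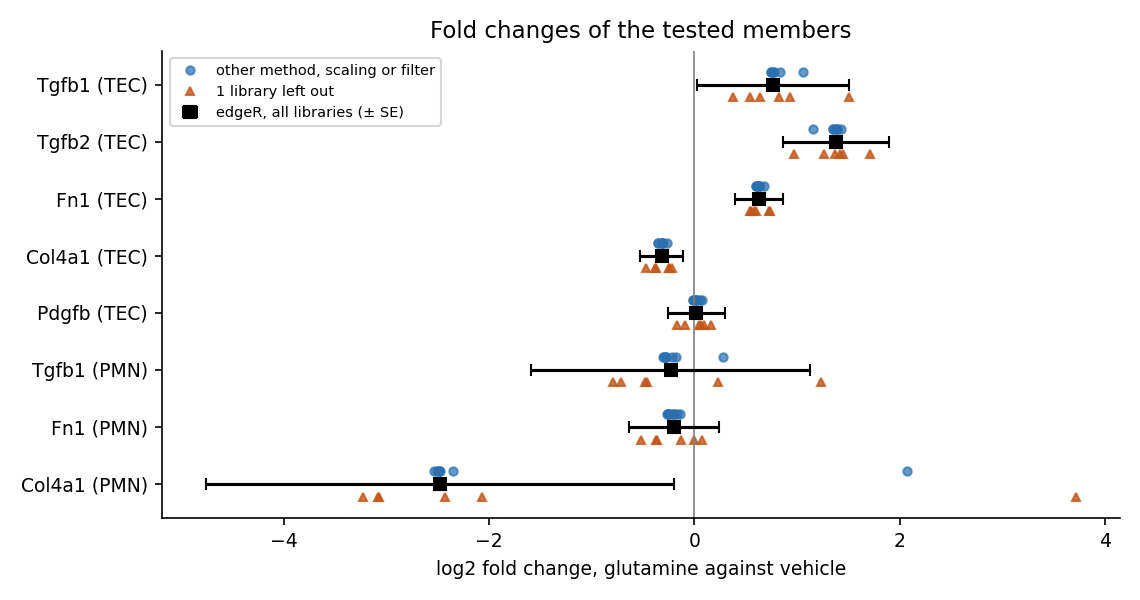
Log2 fold change, glutamine against vehicle (x axis), of the members that passed the filter in TECs (5 genes) and in PMN (3 genes). Squares with bars give the edgeR value and its SE over all libraries, circles the fits with another method, scaling or filter, and triangles the fits with 1 library left out. Tgfb2 and Fn1 in TECs lie above 0 in every fit, and Col4a1 in PMN spans from -3.23 to 3.72.

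Levels between genes were compared per kilobase of the longest coding transcript. In TECs, Col4a1 was highest at 32.6 CPM per kilobase (range over 6 libraries 24.9 to 40.1), followed by Pdgfb at 6.90 (5.02 to 8.21) and Fn1 at 3.76 (2.63 to 5.07). Mmp7 followed at 1.28 (0 to 4.34), Tgfb1 at 1.02 (0.288 to 1.66) and Tgfb2 at 0.956 (0.443 to 2.08), and Col1a1 at 0.116 and Col3a1 at 0.0724 were lowest. Col4a1 was above Pdgfb, and Pdgfb above Fn1, within each of the 6 libraries, although the ranges of Pdgfb and Fn1 over all libraries touched. For each neighbouring pair from Fn1 downward the ranges overlapped. In both treatments Col4a1 was highest, and Col1a1 and Col3a1 were lowest. The order of the means of Mmp7, Tgfb1 and Tgfb2 turned between treatments, with 2.26, 0.753 and 0.526 CPM per kilobase with vehicle and 0.302, 1.29 and 1.38 with glutamine.

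Related genes were examined in TECs from named lists, of which no gene passed the adjusted threshold in edgeR. The other fits were not read for these lists. The median log2 fold change over all 14734 genes was 0.01. Of 13 tested genes for TGF-β ligands, latency and activation, 10 were higher and 3 lower with glutamine (median 0.18), and Tgfb2 alone had an unadjusted p-value below 0.05. The lowest of them was Itgb8, an integrin chain that releases active TGF-β (-0.35 ± 0.48 SE). Among 15 receptor and SMAD genes, 6 were higher and 9 lower (median -0.18). These ranged from Bambi, a decoy receptor (1.19 ± 0.70 SE, 0.917 to 1.70 CPM with vehicle and 1.80 to 5.59 CPM with glutamine), to Acvrl1, an endothelial type I receptor (-0.82 ± 0.33 SE, edgeR, unadjusted p = 0.0312, adjusted p = 0.346). The TGF-β receptors had log2 fold changes of 0.34 ± 0.22 for Tgfbr1 and -0.27 ± 0.25 for Tgfbr2 (SE).

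Of 12 tested TGF-β target genes, 8 were higher and 4 lower (median 0.12). Tgfbi, a matrix adapter protein induced by TGF-β, was measured at 10.4, 6.54 and 4.79 CPM with vehicle and 15.1, 28.7 and 13.1 CPM with glutamine. These groups did not overlap, with a log2 fold change of 1.38 ± 0.41 (SE, edgeR, unadjusted p = 0.00621, adjusted p = 0.243). In the separately normalized PMN libraries, Tgfbi was at 1391 to 2554 CPM. The part of leukocytes in the TEC values of Tgfbi was not tested. The classical target Ccn2 (connective tissue growth factor) had a log2 fold change of 0.25 ± 0.39 (SE), and Tagln, a smooth muscle gene, had the lowest at -0.89 ± 0.63 (SE).

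Among the matrix genes, 5 interstitial collagens were tested, of which 4 were higher and 1 lower (median 0.55). Col5a1, a fibril-nucleating collagen, was 5.33, 4.48 and 2.75 CPM with vehicle and 0.721, 0.402 and 0.768 CPM with glutamine. The groups were clearly apart (log2 fold change -2.67 ± 0.68 SE, edgeR, unadjusted p = 0.00239, adjusted p = 0.212), while Col14a1 had the highest value of the list (1.28 ± 0.73 SE). The paper that reported these data, which used DESeq2, lists Col5a1 among its differentially regulated TEC genes, also lower with glutamine. Of 18 basement membrane genes, 7 were higher and 11 lower (median -0.14). Within this list, Lama4 was highest (0.66 ± 0.88 SE), Lamb3 lowest (-0.79 ± 0.53 SE), and Col18a1 had the smallest p-value (-0.59 ± 0.20 SE, edgeR, unadjusted p = 0.0139, adjusted p = 0.275). Of 13 genes of provisional and matricellular matrix, 5 were higher and 8 lower (median -0.38), and the lower values were led by the fibrinogen chains.

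Unlike Fn1, the fibrinogen genes had lower means with glutamine. Fgb was 553, 237 and 47.8 CPM with vehicle and 95.5, 47.2 and 39.8 CPM with glutamine (log2 fold change -2.20 ± 0.67 SE, edgeR, unadjusted p = 0.00715, adjusted p = 0.243). Its vehicle replicate 5 again lay among the glutamine libraries. Fga and Fgg, the partner chains, had log2 fold changes of -1.71 ± 0.52 and -1.88 ± 0.63 (SE, edgeR, adjusted p = 0.243 and 0.267). The highest value of the list was that of Fbn1, a microfibril protein (1.25 ± 0.64 SE), at 0.888 to 2.24 CPM with vehicle and 2.52 to 5.04 CPM with glutamine.

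Genes that modify matrix showed values in both directions. Of 14 genes of collagen processing, 6 were higher and 8 lower (median -0.06), with Pcolce, an enhancer of procollagen cleavage, at 0.86 ± 0.33 (SE, edgeR, unadjusted p = 0.023, adjusted p = 0.319), Bmp1, the procollagen protease itself, at -0.75 ± 0.54, and the collagen chaperone gene Serpinh1 at -0.69 ± 0.25 (SE, edgeR, unadjusted p = 0.0188, adjusted p = 0.301). Of 6 tested metalloproteinases, 4 were higher and 2 lower (median 0.67), from Mmp12, macrophage elastase, at 2.07 ± 0.76 (SE, 0.537 to 1.68 CPM with vehicle and 1.20 to 6.69 CPM with glutamine; edgeR, unadjusted p = 0.0194, adjusted p = 0.302) to Mmp19 at -0.71 ± 0.46 (SE). Of 4 tested inhibitors, 3 were higher and 1 lower (median 0.02). Timp3, which binds to matrix, was highest at 0.46 ± 0.28 (SE), Timp4 lowest at -0.49 ± 0.75 (SE), and Timp2, a marker of tubular stress, had 0.03 ± 0.29 (SE).

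In the PDGF family, 3 of 5 tested genes were higher and 2 lower (median 0.02). Pdgfa, a further ligand, had 70.7, 63.5 and 88.3 CPM with vehicle and 99.8, 90.2 and 63.3 CPM with glutamine (0.19 ± 0.24 SE, the smallest p-value of the list: edgeR, unadjusted p = 0.448, adjusted p = 0.772). The receptor Pdgfrb was highest (0.22 ± 0.72 SE) and the ligand Pdgfd lowest (-0.62 ± 0.79 SE), both below 5 CPM, and Pdgfra stayed between 0.269 and 1.08 CPM and was not tested. Of 12 matrix-binding integrins, 6 were higher and 6 lower (median 0), with Itga2 highest (0.83 ± 1.09 SE) and Itgb3 lowest (-0.44 ± 0.52 SE). Itga6, which binds laminin, had the smallest p-value (0.44 ± 0.20 SE, edgeR, unadjusted p = 0.049, adjusted p = 0.389).

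**Figure D3:**
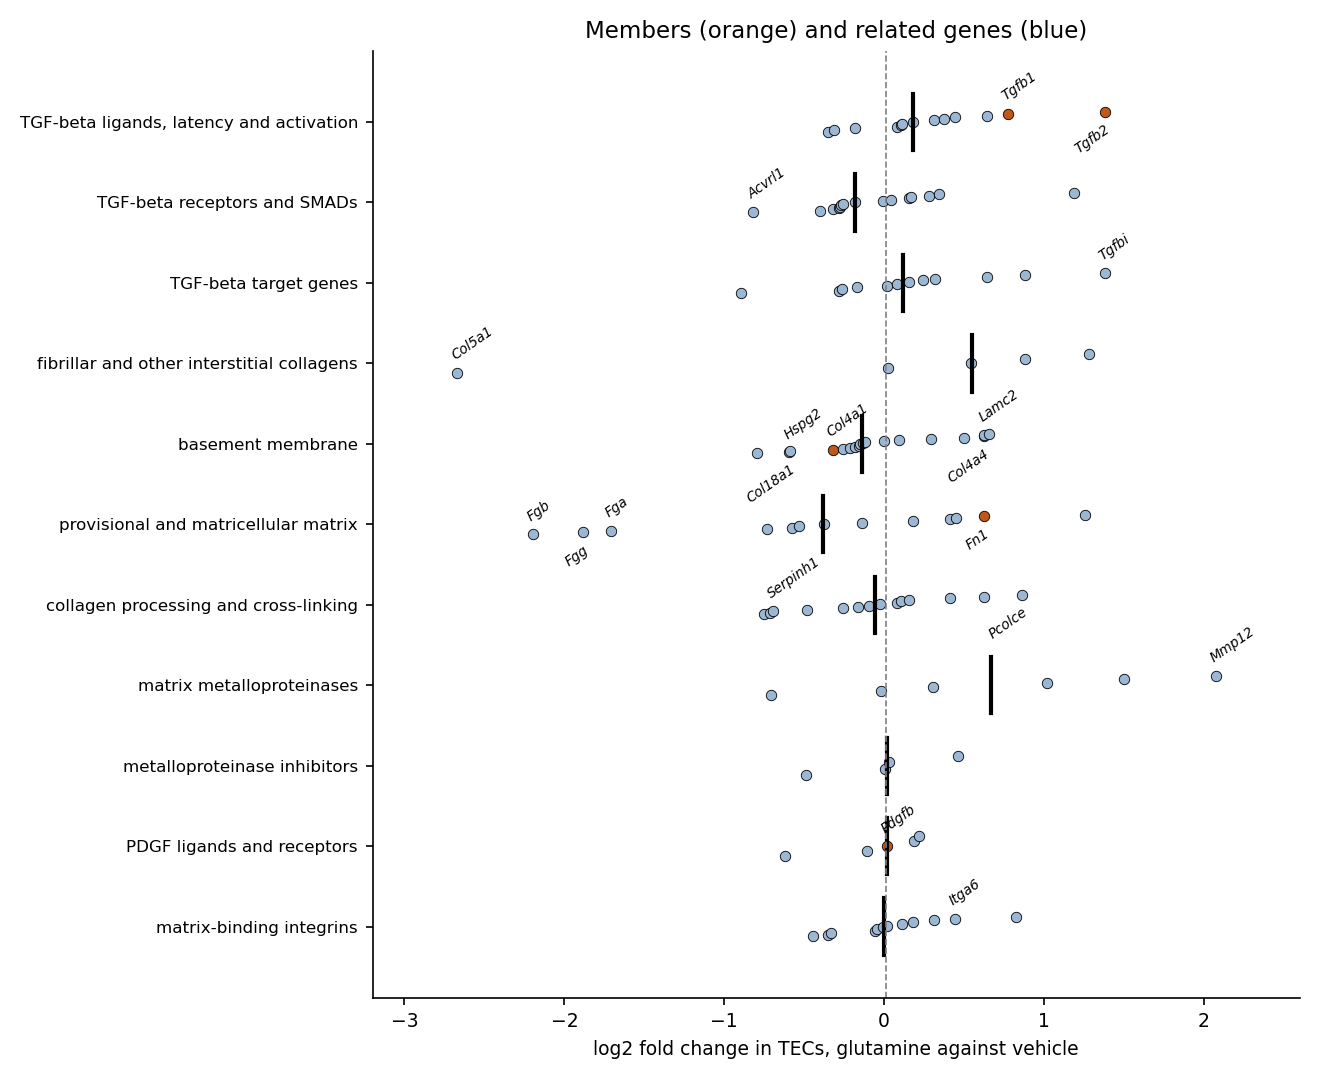
Log2 fold change in TECs, glutamine against vehicle (x axis), of each tested gene in 11 lists (rows). Orange points are members and blue points related genes, black bars are list medians, the dashed line is the median over all tested genes, and names mark members and genes with an unadjusted p-value below 0.05. Mmp12 lies farthest to the right (2.07), Tgfb2 (1.38) is the highest of the members, and Col5a1 (-2.67) and the fibrinogen chains lie farthest to the left.

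Markers of other cells were read beside these values. The 11 fibroblast and pericyte markers summed to 29.1 to 44.1 CPM with vehicle and 54.9 to 77.1 CPM with glutamine, without overlap. Of the 7 that were tested, 5 were higher and 2 lower, Cspg4, a pericyte marker, was highest (log2 fold change 1.42, unadjusted p = 0.00535 in edgeR), and Lum was at 0 in all 6 libraries. Summed levels overlapped between the groups for the 8 endothelial markers (364 to 588 against 361 to 504 CPM), the 8 macrophage markers (28.2 to 56.0 against 31.6 to 62.3 CPM), the 6 monocyte markers (90.8 to 122 against 82.0 to 124 CPM) and the 8 neutrophil markers (101 to 242 against 118 to 250 CPM). Of the tested genes, 2 of 8 endothelial, 4 of 6 macrophage, 2 of 4 monocyte and 4 of 5 neutrophil markers were higher with glutamine. Their median log2 fold changes were -0.24, 0.67, 0.69 and 0.39, beside 0.01 over all genes. No gene of these lists had an unadjusted p-value below 0.05 in edgeR. Ptprc itself was at 1.48, 1.52 and 0.102 CPM with vehicle and at 2.28, 1.81 and 2.74 CPM with glutamine, without overlap (log2 fold change 1.13 ± 0.89 SE, edgeR, adjusted p = 0.62). Sums overlapped also for platelet (7.34 to 30.6 against 11.5 to 29.7 CPM), lymphocyte (9.94 to 22.5 against 15.2 to 25.3 CPM) and erythroid markers (802 to 4396 against 969 to 6709 CPM), and for the 8 proximal tubule markers (3639 to 5712 against 3674 to 5800 CPM) and the 10 markers of injured tubule (3097 to 6419 against 3006 to 3954 CPM). Although their sum overlapped, 7 of the 8 proximal tubule markers were higher with glutamine (median log2 fold change 0.41), 3 of them at an unadjusted p-value below 0.05 (Slc5a2, Slc5a12 and Slc22a6). The part of these cells in the values of Tgfb2, Fn1 and Mmp7 was not tested.

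The genes most alike to each member over the 6 TEC libraries were named by Pearson's r of log2 CPM, as a description. For Tgfb2 these were Slc12a1 (r = 0.992), Ulk1 (0.977) and Supt3 (0.973). Slc12a1, the sodium-potassium-chloride cotransporter of the thick ascending limb, was measured at 38.3, 45.0 and 38.0 CPM with vehicle and 53.0, 143 and 103.9 CPM with glutamine (log2 fold change 1.30 ± 0.32 SE, edgeR, unadjusted p = 0.00179, adjusted p = 0.208). Both genes were highest in glutamine replicate 2. Of 7 markers of this segment, chosen after the values of Tgfb2 were seen, 6 were higher (2 at an unadjusted p-value below 0.05) and 1 lower, and their sum overlapped between the groups (1162 to 2126 against 1406 to 2525 CPM), as Umod, which encodes uromodulin, was measured at 1989, 1189 and 997 CPM with vehicle and 1226, 2110.2 and 1262 CPM with glutamine. All 4 distal convoluted tubule markers were higher (median log2 fold change 0.83), 3 of them at an unadjusted p-value below 0.05 (Calb1, Pvalb and Slc12a3), and their sum was 78.1 to 127 CPM with vehicle and 123 to 224 CPM with glutamine. Of 5 tested collecting duct markers, 3 were higher and 2 lower, and the sum of all 7 overlapped (114 to 242 against 114 to 328 CPM). The part of tubule segments in the values of Tgfb2 was not tested.

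For Fn1 the most alike genes were Rnf207 (0.993), Plxdc2 (0.986) and Aldoc (0.985), for Col4a1 Sparc (0.996), Fgfr1op2 (0.988) and Scin (0.983), for Pdgfb Zfp260 (0.998), Tgm4 (0.986) and Ccdc141 (0.983), and for Tgfb1 Xpc (0.982), Serpini1 (0.981) and Col20a1 (0.981). Between 16 and 46 genes exceeded an r of 0.95 with each member, and with 6 libraries in 2 groups such values share treatment and depth. Among the members, Tgfb2 and Fn1 followed each other (r = 0.91), and Pdgfb and Col4a1 had an r of 0.53. With Col4a2, which is no member, Col4a1 had an r of 0.85 and Pdgfb of 0.80. Tgfb1 correlated with Tgfb2 at 0.45 and with Fn1 at 0.42.

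In PMN, edgeR tested 10130 genes. On simulated PMN counts it recovered 0% of 200 genes that were changed by a log2 fold size of 2. An absent call in PMN therefore does not show that a gene was unchanged. No gene had an adjusted p-value below 0.05 (0% of the tested genes), with 0 genes also in limma-voom and 304 in DESeq2, 2.04% were higher and 1.37% lower with glutamine at an unadjusted p-value below 0.05, and of the members Fn1, Tgfb1 and Col4a1 were tested and none passed either threshold. Fn1 was measured at 1022, 375 and 819 CPM with vehicle and 755, 399 and 775 CPM with glutamine. The groups overlapped, with 1 low library in each. The log2 fold change was -0.20 ± 0.44 (SE, edgeR, adjusted p = 1), and it turned to 0.07 without vehicle replicate 1. Monocytes, which circulate with PMN and are known to express Fn1, had 6 markers that summed to 1360 to 2047 CPM with vehicle and 1187 to 2163 CPM with glutamine, and their part in the level of Fn1 was not tested.

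Tgfb1 in PMN was measured at 3.31, 0.912 and 0.0952 CPM with vehicle and 1.58, 0.189 and 1.91 CPM with glutamine. Its log2 fold change was -0.23 ± 1.36 (SE, edgeR, adjusted p = 1). It turned to 1.23 without vehicle replicate 1 and to 0.23 without glutamine replicate 2. Col4a1 was 5.11, 568 and 0.0476 CPM with vehicle and 61.9, 9.62 and 30.9 CPM with glutamine. Vehicle replicate 2, the library with the endothelial markers, held nearly all of the vehicle signal, together with 137 CPM of Col4a2. The log2 fold change was -2.48 ± 2.28 (SE, edgeR, adjusted p = 1) with all libraries and 3.72 ± 2.44 without vehicle replicate 2 (adjusted p = 0.999; range over the alternatives 0.722 to 1).

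The other 5 members were at 0 in several or all of the PMN libraries. Col1a1 was counted 190.5, 70.5 and 1 times with vehicle and 0 times in all glutamine libraries. It was below edgeR's filter, while DESeq2, most of whose calls in simulated PMN counts fell on unchanged genes, gave an adjusted p = 0.0391, and the other fits that included it gave 0.558 to 0.995. Its counts came mainly from vehicle replicates 1 and 2. Vehicle replicate 1 also had high Umod and Slc12a3, and vehicle replicate 2 the endothelial markers. The part of other cells in the counts of Col1a1 was not tested. Pdgfb was found only in glutamine replicate 3, at 13.9 CPM (277.5 counts). Tgfb2, Col3a1 and Mmp7 were 0 in all 6 libraries, which allows up to 0.158 CPM in the least favourable library.

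**Figure D4:**
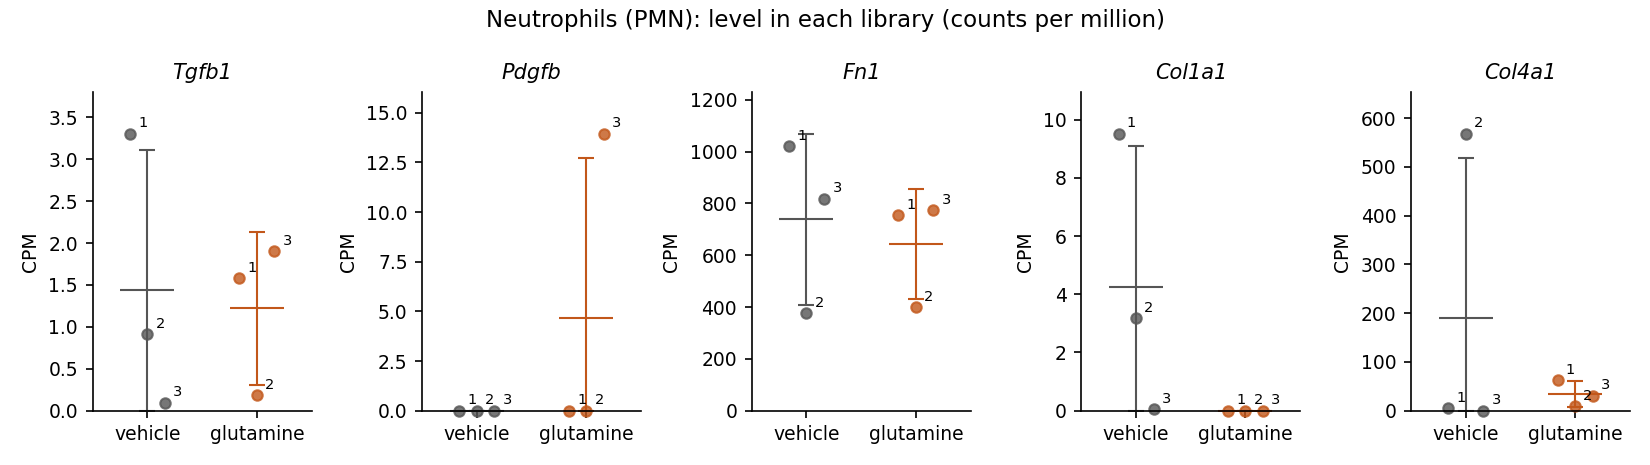
Level of the 5 genes that were detected in PMN in each library, in CPM (y axis, starting at 0, with its own scale in each panel). Points are libraries labelled by replicate number, and lines and bars give the mean and SD of 3 libraries, with bars cut at 0. Single libraries set the level of Pdgfb (glutamine replicate 3) and Col4a1 (vehicle replicate 2), and Fn1 lies at 375 CPM or above in every library.

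Per kilobase of transcript, Fn1 led the order in PMN at 83.1 CPM per kilobase (range over 6 libraries 45.1 to 123), before Col4a1 at 17.0 (0.00719 to 85.9), Pdgfb at 0.79, Tgfb1 at 0.612 and Col1a1 at 0.359. The ranges of each neighbouring pair overlapped, and the order of the last 3 turned with vehicle. Pdgfb, Tgfb1 and Col1a1 were at 0, 0.661 and 0.717 CPM per kilobase with vehicle and at 1.58, 0.563 and 0 with glutamine. The TEC and PMN tables were normalized separately, so that their levels stand side by side without a test. Fn1 was at 3.76 CPM per kilobase in TECs, where Col4a1, Pdgfb and Tgfb2 were found in all 6 libraries. Of the related lists, the 6 PDGF genes and 13 interstitial collagens had no tested member in PMN, and 10 of the 13 collagens were at 0 in all libraries once counts were rounded.

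The lists leaned to either side in PMN. For matrix-binding integrins, 1 of 7 tested genes was higher and 6 were lower (median -1.21), with sums of 363, 932 and 445 CPM with vehicle and 144, 340 and 359 CPM with glutamine. The highest sum was that of vehicle replicate 2, the library with the endothelial markers, of which all 4 that were tested were lower with glutamine (median -2.23). Their part in the integrin values was not tested. For provisional and matricellular matrix, all 5 tested genes were lower (median -0.25), 1 of them at an unadjusted p-value below 0.05. This was Spp1, which encodes osteopontin, at 19774 CPM in vehicle replicate 1 against 928 to 1302 CPM in the other 5. Vehicle replicate 1 was the library with high Umod and Slc12a3. Genes higher and lower numbered 3 and 5 for TGF-β ligands, latency and activation, 6 and 4 for receptors and SMADs, 4 and 5 for targets, 1 and 2 for basement membrane, 3 and 5 for collagen processing and 1 and 2 for metalloproteinase inhibitors.

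Metalloproteinases of neutrophil granules were abundant in PMN. Of 7 tested metalloproteinase genes, 5 were higher and 2 lower with glutamine (median 0.46, beside 0 over all genes). Mmp9, a granule gelatinase, was 574, 553 and 525 CPM with vehicle and 1343, 743 and 1307 CPM with glutamine, without overlap (log2 fold change 1.04 ± 0.29 SE, edgeR, unadjusted p = 0.00887, adjusted p = 0.852). Mmp8, the neutrophil collagenase, was 1559 ± 481 and 1867 ± 779 CPM in vehicle-treated and glutamine-treated mice (SD, n = 3), with a log2 fold change of 0.26 ± 0.37 (SE). Both enzymes were named after their values were seen. Values of the groups did not overlap for 5.87% of the tested PMN genes with glutamine higher and for 4.63% with glutamine lower. Ptprc, which marks leukocytes, was also without overlap, at 564, 317 and 569 CPM with vehicle and 754, 819 and 1150.5 CPM with glutamine (log2 fold change 0.91 ± 0.33 SE, edgeR, unadjusted p = 0.028, adjusted p = 1). The 7 lymphocyte markers summed to 0.601, 25.4 and 0.999 CPM with vehicle and 33.4, 20.9 and 25.1 CPM with glutamine. These sums overlapped through vehicle replicate 2. Among the markers, Cd79b was at 0 in all vehicle libraries and at 31.3, 18.6 and 23.9 CPM with glutamine, without overlap. In edgeR, Cd79b had an unadjusted p = 0.00361 and an adjusted p = 0.713. The part of other leukocytes in these values was not tested.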

How the data were processed

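RNA from sorted TECs (6 libraries) and blood PMN (6 libraries) was reverse transcribed from the poly(A) tail and sequenced as reads of 50 bases. Per the labels, the submitters' processing notes name FastQC, MultiQC, Trim Galore 0.6.4, Salmon 1.0.0, DESeq2 and the mm10 genome. For both cell types the authors deposited tables of estimated counts, without normalization, by gene symbol. The annotation used is not given in the sources used here. The deposited PMN table holds, as other values, 2 columns of estimated counts per library and had been resaved by a spreadsheet program: 3.204% of its cells carried extra points and 0.391% had become dates. These were decoded, with the last point taken as the decimal point. The 2 columns (r = 0.995 to 0.996, against 0.773 to 0.826 between libraries) were averaged and count as 1 replicate.

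Estimated counts were rounded. edgeR 4.0.16 (R 4.3.3) was used with TMM, its default expression filter and the quasi-likelihood test, separately for 14734 TEC and 10130 PMN genes, with Benjamini-Hochberg adjusted p-values below 0.05. SEs came from the fold change and the F statistic. Members below the filter in TECs were compared by exact permutation tests of CPM. Alternatives were DESeq2 1.42.0, limma-voom (limma 3.58.1), RLE and upper-quartile scaling, other filters, a threshold of 0.1, single PMN columns and leaving out each library. The tests were tried on simulated counts with known changes, where edgeR recovered most of the changed genes in TECs and none in PMN, and most of DESeq2's calls in PMN fell on unchanged genes. Library totals set the counting floors, and the spread between libraries enters each test.

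The members and lists were chosen with earlier results of these data known. Named genes are the members, the highest, lowest and smallest-p gene of each list in TECs, genes of direct relation to a member (such as Col4a2, Col1a2, Tgfb3, Timp2, Timp3, the receptors and the target Ccn2), the sort markers and the 3 genes most alike to each tested member, predicted, Rik and smell receptor genes left out. Genes outside this rule (Havcr1, Fga, Fgg, Umod, Lum, Cspg4, Spp1, Cd79b, Mmp8 and Mmp9) and the proximal tubule markers named singly were chosen after values were seen. So were the markers of the thick ascending limb, distal convoluted tubule and collecting duct. Positions are from GENCODE M21 and promoter windows from RefSeq. Timp1 was not analysed here.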

Additional observations from a re-analysis of the deposited data

How the results depend on the processing

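No member passed the adjusted threshold in TECs under any setting, and in PMN only Col1a1 did, in DESeq2. Over all alternatives, Tgfb2 in TECs kept its direction, with log2 fold changes of 0.97 to 1.71 and adjusted p of 0.223 to 0.677, as did Fn1 (0.54 to 0.74), Tgfb1 (0.38 to 1.51) and Col4a1 (-0.47 to -0.22). In TECs, the number of genes past the adjusted threshold was 0 in edgeR (1878 at an unadjusted p-value below 0.05), 245 in DESeq2 (184 higher), 425 without the expression filter (309 higher) and 0 in limma-voom, with the other scalings and filters and at 0.1. Leaving out 1 library gave 0 to 36, namely 4 without vehicle replicate 5 and 36 without glutamine replicate 2. In PMN it was 0 in edgeR (346 unadjusted) and 304 in DESeq2 (166 higher), and 0 otherwise. The causes were not tested. 

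Pdgfb in TECs turned to -0.01 with upper-quartile scaling and without the filter, and leaving out 1 library gave -0.17 to 0.16. In PMN, Tgfb1 turned to 0.28 and Col4a1 to 2.07 in limma-voom. Leaving out 1 library gave -0.79 to 1.23 for Tgfb1, -0.52 to 0.07 for Fn1 (0.00 without glutamine replicate 2) and -3.23 to 3.72 for Col4a1. Leaving out 1 library in TECs gave differences of -3.29 to -0.976 CPM for Mmp7, -1.33 to -0.000917 CPM for Col1a1 and -0.323 to -0.0489 CPM for Col3a1. Low counts limit the comparison of Col1a1, Col3a1 and Mmp7 in TECs, each of which had 3 counts or fewer in several libraries. No paired analysis was made. By the paper, mice were assigned to groups at random, and the labels pair no vehicle library with a glutamine library. Number 3 occurs in both TEC groups without naming a pair, and the PMN labels give no replicate numbers.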
